A study of Mus musculus with 18 samples.

Results

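A set of 10 genes, whose LIM-domain proteins work on or near the actin cytoskeleton, was followed across all 18 RNA libraries of the study: the LIM-only genes Fhl1, Fhl2 and Fhl3, the cysteine-rich genes Csrp1 and Csrp2, and the PDZ-LIM genes Pdlim2, Pdlim3, Pdlim4, Pdlim5 and Pdlim7. They were chosen by symbol, with earlier results of these data known, and all 10 were found among the 18909 genes of the table. They are not the whole of these families: Pdlim1, Ldb3, Csrp3, Fhl4 and Fhl5 were placed in a list of other LIM genes. The cells were B16F10, a melanoma line, and E0771, a mammary tumour line, both mouse cell lines. Each line carried the empty pRetrox vector (control), MRTFA or MRTFB. Every culture, the controls included, received doxycycline at 500 ng/mL for 48 h, meant to switch the transgene on. Each of the 6 groups had 3 replicates. Nothing in the labels says whether replicates were separate cultures, so the p-values measure the spread between these libraries, which may be technical.

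LIM domains are zinc-binding modules through which proteins attach to other proteins and, in many cases, to strained actin filaments. FHL proteins consist of LIM domains alone and move between muscle Z-discs, focal adhesions and the nucleus. CSRP proteins crosslink actin and bind alpha-actinin, and PDZ-LIM proteins use their PDZ domain to hold alpha-actinin and their LIM domains to bring in partners such as kinases. MRTFA and MRTFB are coactivators held by monomeric actin; once released they enter the nucleus and join serum response factor, which binds a DNA element called the CArG box in front of many cytoskeletal genes.

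Promoter sequence is shown first because the CArG box is the element through which MRTFA and MRTFB are known to act. RefSeq (GRCm38.p6) gave promoter windows of 300 bases, from 250 before to 50 after a transcription start, for 8 of the 10 genes and 12 starts in all; Csrp2 and Pdlim2 had no entry. The exact CArG consensus, which reads the same on both strands, was present in 3 of the 12 windows, 1 of Fhl1 and both of Fhl2, against 1.63% of all 32851 windows. The stretches around these boxes are given 5′ to 3′ on the gene's strand, with the box in capitals.
Fhl1, chrX:56779541-56779630, plus strand: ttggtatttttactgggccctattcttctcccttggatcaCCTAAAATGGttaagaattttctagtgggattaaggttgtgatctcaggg
Fhl2, inner start, chr1:43163962-43164032, minus strand: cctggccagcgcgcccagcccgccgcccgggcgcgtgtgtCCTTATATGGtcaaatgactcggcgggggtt
Fhl2, outer start, chr1:43196838-43196867, minus strand: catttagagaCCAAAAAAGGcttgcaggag
The box lay 102 to 93 bases before the Fhl1 start, 31 to 22 bases before the inner Fhl2 start and 96 to 87 bases before the outer one, counted from the RefSeq starts. GENCODE begins Fhl2 further upstream than the outer RefSeq start, so by that annotation all 30 bases shown there lie in an exon of Fhl2, while the other stretches lie outside the exons of their gene. A match is a description of letters, not a shown binding site, and the windows of Fhl3, Csrp1, Pdlim3, Pdlim4, Pdlim5 and Pdlim7 held no exact match in these 300 bases.

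All 10 genes are protein coding and were located by identifier in GENCODE M21 (GRCm38). The FHL genes lie on chromosome X (Fhl1, 56731787 to 56793346, plus strand), 1 (Fhl2, 43123074 to 43196984, minus strand) and 4 (Fhl3, 124700701 to 124708611, plus strand). Csrp1 is on chromosome 1 (135720061 to 135752232) and Csrp2 on 10 (110919789 to 110939622), both on the plus strand. The PDZ-LIM genes are on 14 (Pdlim2, 70164218 to 70177681), 8 (Pdlim3, 45885461 to 45919548), 11 (Pdlim4, 54054928 to 54069014), 3 (Pdlim5, 142239590 to 142395696) and 13 (Pdlim7, 55495795 to 55513676), with Pdlim3 on the plus strand and the others on the minus strand. Exons of another gene overlapped those of Pdlim7 alone: a microRNA, Mir6945, shares 68 bases on the same strand.

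Depth was 27607055 to 37116655 reads per library. Expression is given as scaled reads, the reads of a gene divided by the size factor of its library; differences are on the scale of log2(scaled reads + 1), which understates changes of low genes, and a gene was called at a limma adjusted p under 0.05 over all tested genes. The transgenes were checked first. In E0771, Mkl1, the mouse gene of MRTFA, averaged 1349 ± 202 scaled reads (SD, n = 3) in controls and 13728 ± 2454 with MRTFA (log2 difference 3.34, adjusted p = 4.68e-07), and Mkl2, the gene of MRTFB, went from 1344 ± 106 to 2158 ± 87.9 with MRTFB (0.68, adjusted p = 0.0306). In B16F10 neither was called: Mkl1 was 1015 ± 83.3 in controls and 1205 ± 266 in the libraries labelled MRTFA (0.22, adjusted p = 0.856), and Mkl2 was 1501 ± 330 and 1886 ± 128 in those labelled MRTFB (0.35, adjusted p = 0.503). The sources used here do not say whether the transgenes are mouse sequence that would be counted under these genes, so B16F10 groups are named by their labels. Melanocyte markers (7 of 7 in the table) summed to 594106 to 757748 scaled reads in B16F10 controls and 558 to 636 in E0771 controls.

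With MRTFA in E0771 all 10 genes rose, most of them steeply: Fhl1 and Pdlim3 from near silence, Csrp1 11.4-fold, Pdlim5 9.10-fold, Pdlim7 6.23-fold, and Fhl3 least, 1.35-fold. In this comparison 38.4% of the 13189 tested genes were called in either direction and 20.3% were higher. The median log2 difference of the 10 genes was 2.42, beside −0.02 over all tested genes. None of the 10 genes had a control library that reached the lowest MRTFA library. The share of all tested genes that lay apart in this way was not counted, in this comparison or the others. Statements on overlap, here and below, therefore only describe the 10 genes. In the B16F10 libraries labelled MRTFA, 9 of the 10 genes could be tested. Without pairing by replicate number 3 were called higher, Fhl1, Pdlim3 and Pdlim5, where 1.55% of 13517 genes were called. With replicate number as a block 7 were called, 6 of them higher and Csrp2 lower, among 855 genes in all. The median log2 difference of the 9 genes was 0.72, beside −0.01 over all genes. It was the same with Pdlim3 set at the bound given for it later. Pdlim3 passed the filter on low values in each line through the MRTFA libraries alone, so it had to differ, and the counts that hold it are not support for a difference. In bulk libraries a change in the share of cells of one kind and a change in RNA per cell cannot be told apart.

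**Figure D1:**
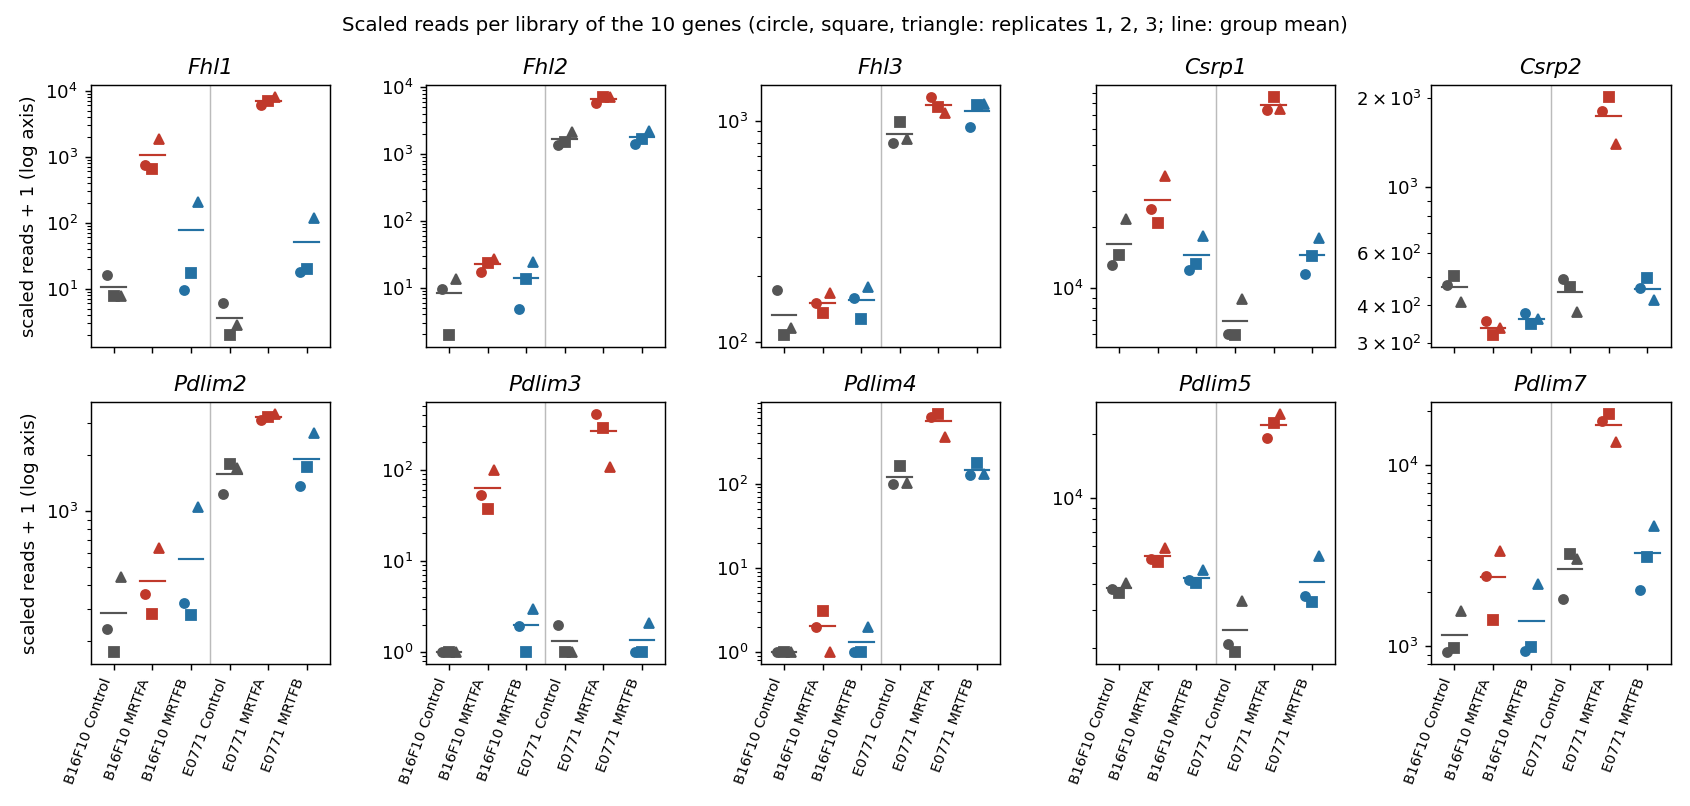
Scaled reads plus 1 on a log axis in each of the 18 libraries, 1 panel per gene, with B16F10 left and E0771 right of the grey line, circles, squares and triangles for replicates 1, 2 and 3, and a horizontal line at the group mean. In E0771 the 3 MRTFA libraries lie above all controls in every panel, while in B16F10 they do so for Fhl1, Fhl2, Pdlim3 and Pdlim5 and lie below them for Csrp2. The share of all genes that lay apart was not counted.

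Fhl1, whose protein is most abundant in skeletal and heart muscle, rose from near silence in both lines. E0771 controls had 5.03, 1.001 and 1.87 scaled reads, or 8 reads in all, and the MRTFA libraries 6131, 7056 and 8075. The means were 2.63 ± 2.12 and 7087 ± 972 (SD, n = 3), a ratio of 2690 and a log2 difference of 11.08 ± 0.64 (SE, adjusted p = 5.15e-07). With so few control reads the size is loose: without control replicate 1 the ratio was 4938, and a pseudocount of 10 gave a log2 difference of 9.14. B16F10 controls were low too, though each above every E0771 control, at 15.4, 6.82 and 6.68, and the libraries labelled MRTFA had 759, 644 and 1825. The groups did not overlap in either line. In B16F10 the ratio of means was 112, or 72.8 without MRTFA replicate 3, and the log2 difference 6.60 ± 0.94 (adjusted p = 0.00458); without MRTFA replicate 1 it was 6.77 with adjusted p = 0.0562, which misses the threshold.

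Fhl2, a partner of many transcription factors in heart and tumour cells, was already expressed in E0771. Controls had 1348, 1527 and 2125 scaled reads and MRTFA libraries 5801, 7046 and 7182. The groups lay apart, with a 4.01-fold ratio of means and a log2 difference of 2.02 ± 0.19 (adjusted p = 1.48e-05). In B16F10 it was barely present, at 8.66, 0.97 and 12.4 scaled reads in controls against 16.1, 22.8 and 25.7 in libraries labelled MRTFA. These groups did not overlap either, but the difference of 1.80 (95% interval 0.16 to 3.45) was not called (adjusted p = 0.454) and rests on 23 and 65 reads.

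Fhl3, which binds actin in skeletal muscle, moved least in E0771: 796, 996 and 831 scaled reads in controls and 1289, 1157 and 1092 with MRTFA. The lowest MRTFA library was above the highest control, and the log2 difference was 0.43 ± 0.13 (adjusted p = 0.0226). That call was lost when control replicate 1 or 3 or MRTFA replicate 1 or 2 was left out (adjusted p = 0.0614 to 0.0904) and in a fit over all 18 libraries (0.063). In B16F10, controls of 171, 107 and 115 overlapped the MRTFA libraries of 149, 135 and 167, and the difference of 0.22 had an interval from −0.25 to 0.68.

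Csrp1, which bundles actin filaments in smooth muscle, was the most abundant of the 10 genes in reads. In E0771 the controls had 5959, 5918 and 8835 scaled reads and the MRTFA libraries 74489.7, 86178 and 75085. The lowest MRTFA library was far above the highest control, with a log2 difference of 3.53 ± 0.18 (adjusted p = 2.73e-07). In B16F10 the controls had 12928, 14492 and 21741 and the libraries labelled MRTFA 24413, 20907 and 35418. Control replicate 3 lay within the range of the MRTFA libraries, so the groups overlapped, although each MRTFA library was above the control of the same number. The difference of 0.72 ± 0.24 was not called (adjusted p = 0.284), and with replicate number as a block it was (adjusted p = 0.000276).

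Csrp2, the smooth muscle paralogue of Csrp1, rose in E0771 and lay below its controls in B16F10, a fall that the main fit did not call. In E0771 the controls had 491, 461 and 380.3 scaled reads and the MRTFA libraries 1812, 2015 and 1401, a log2 difference of 1.96 ± 0.15 (adjusted p = 4.39e-06). In B16F10 the controls had 469, 501 and 409 and the libraries labelled MRTFA 353, 318 and 335. All 3 B16F10 MRTFA libraries were below all 3 controls. The difference of −0.45 ± 0.11 was not called without a block (adjusted p = 0.108) and was called lower with it (adjusted p = 0.0186). DESeq2 on the recovered reads also called it lower, with adjusted p = 0.0237.

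**Figure D2:**
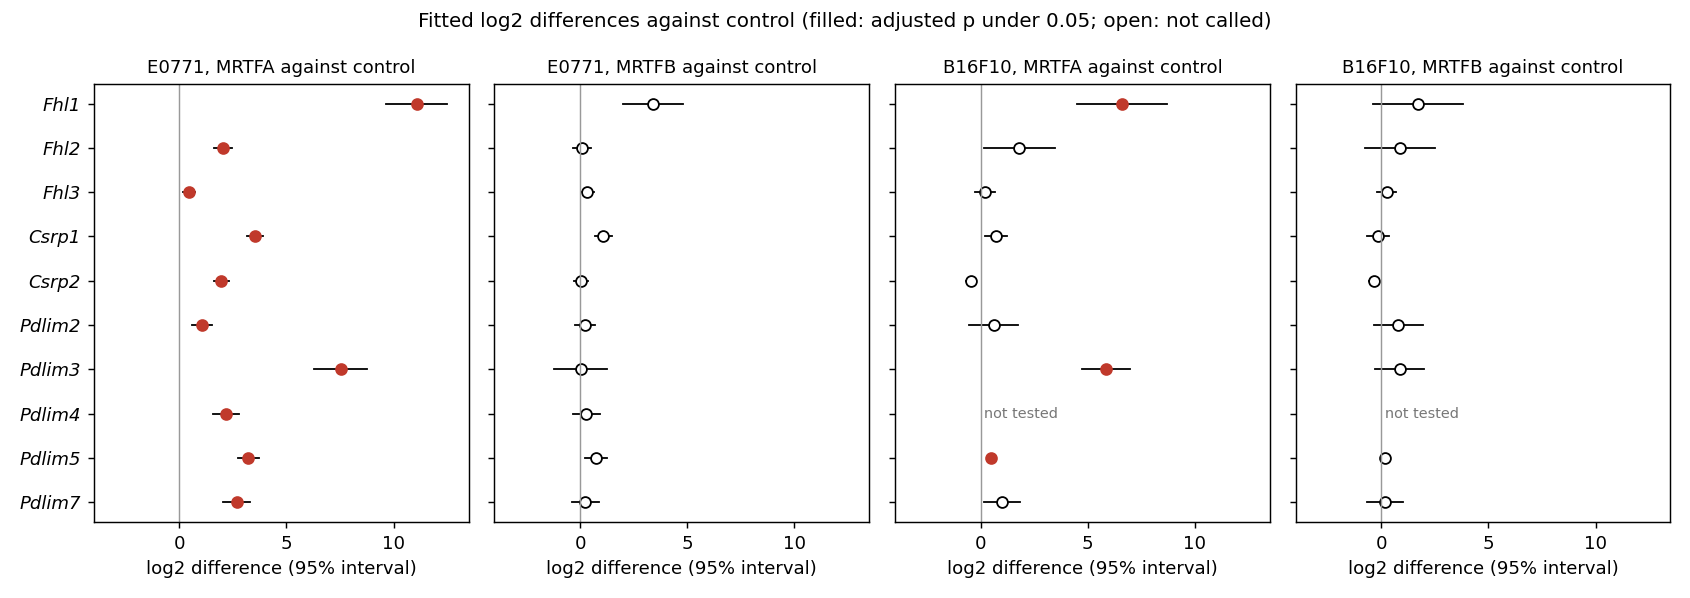
Log2 differences against control with 95% intervals for the 10 genes in 4 panels, E0771 with MRTFA and MRTFB, then B16F10 with MRTFA and MRTFB; filled points passed an adjusted p under 0.05. All 10 points are filled for MRTFA in E0771, 3 for MRTFA in B16F10 and 0 for MRTFB in either line, and Pdlim4 is marked as not tested in B16F10.

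Pdlim3, an alpha-actinin partner of muscle Z-discs, was silent without MRTFA. In E0771 the controls held 1 read over 3 libraries, and the MRTFA libraries had 405, 284 and 107 scaled reads, 815 reads in all. The ratio was 822 with a counting interval of 147 to 32489, since it rests on a single control read, and the log2 difference was 7.52 ± 0.55, or 4.55 with a pseudocount of 10. In B16F10 the controls held 0 reads and the libraries labelled MRTFA 51.4, 36.2 and 97.3 scaled reads. Against 3 reads over the control group, which is what a count of 0 allows, the level was at least 64.9-fold higher. Intervals and limits of this kind cover counting error only.

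Pdlim4, which binds alpha-actinin on stress fibres, was confined to E0771 among the groups with more than 3 reads. The E0771 controls had 96.7, 160.2 and 99.98 scaled reads and the MRTFA libraries 620, 666 and 355. The lowest MRTFA library was above the highest control, and the log2 difference was 2.18 ± 0.28 (adjusted p = 0.000149). In B16F10 the gene had 0 reads in controls, 3 in the libraries labelled MRTFA and 1 in those labelled MRTFB, so no fold is given and no test was made.

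Pdlim5, which ties protein kinase C to the Z-disc and stress fibres, had 2078, 1912 and 3298 scaled reads in E0771 controls and 19136, 22423 and 24770 with MRTFA. The lowest MRTFA library was far above the highest control, with a log2 difference of 3.22 ± 0.22 (adjusted p = 1.95e-06). In B16F10 the step was small but even: 3779, 3606 and 4008 in controls and 5238, 5023 and 5889 in libraries labelled MRTFA. The groups did not overlap. The log2 difference was 0.50 ± 0.09 (adjusted p = 0.0159), and the call was lost without control replicate 1 or 2 or MRTFA replicate 1 or 3 (adjusted p = 0.0748 to 0.116) and in a fit over all 18 libraries (adjusted p = 0.279).

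Pdlim7, known as Enigma and a binder of tropomyosin and receptor kinases, had 1810.4, 3208 and 3010 scaled reads in E0771 controls and 17451, 19092 and 13450.1 with MRTFA. The groups lay apart, with a log2 difference of 2.67 ± 0.29 (adjusted p = 4.27e-05). In B16F10 the controls had 926, 971 and 1563 and the libraries labelled MRTFA 2436, 1397 and 3361. Control replicate 3 lay above MRTFA replicate 2, so the groups overlapped. The difference of 1.01 ± 0.38 was not called (adjusted p = 0.388) and was called with the block (adjusted p = 0.00301).

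Pdlim2, an adaptor that is found on actin and in the nucleus, had 1238.5, 1801 and 1709 scaled reads in E0771 controls and 3099.8, 3208 and 3327 with MRTFA. The groups lay apart, with a log2 difference of 1.04 ± 0.21 (adjusted p = 0.00314), although the fit over all 18 libraries gave adjusted p = 0.0717. In B16F10 the controls had 234, 174 and 443 and the libraries labelled MRTFA 357, 280.4 and 633. The spread between replicate numbers was wider than the step from control to MRTFA. The difference of 0.60 ± 0.52 was not called (adjusted p = 0.878) and was called with the block (adjusted p = 0.0464).

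Levels in B16F10 went with the replicate number. Replicate 3 had the highest level of Csrp1, Pdlim2, Pdlim5 and Pdlim7 in all 3 B16F10 groups, and of Fhl1 in both transgene groups. Not all followed this order: in B16F10 controls replicate 1 was the highest for Fhl1 (15.4) and Fhl3 (171), and replicate 3 the lowest for Csrp2 (409). Across all genes, libraries of equal number deviated together from their group means (r from 0.353 to 0.567 for MRTFA against control), so the numbers were read as pairs. With the block, 7 of 9 genes were called for MRTFA in B16F10, 6 of them higher and Csrp2 lower, while 855 of 13517 genes were called in all. Without MRTFA replicate 1 and without a block, 0 of the 8 genes still tested were called, and 37 of all genes. Without MRTFA replicate 3, 1 of 8 genes was called, and 57 of 13339 over all tested genes. In the E0771 MRTFA group, replicate 3 was the lowest of its group for Fhl3, Csrp2, Pdlim3, Pdlim4 and Pdlim7 and the highest for Fhl1, Fhl2, Pdlim2 and Pdlim5.

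**Figure D3:**
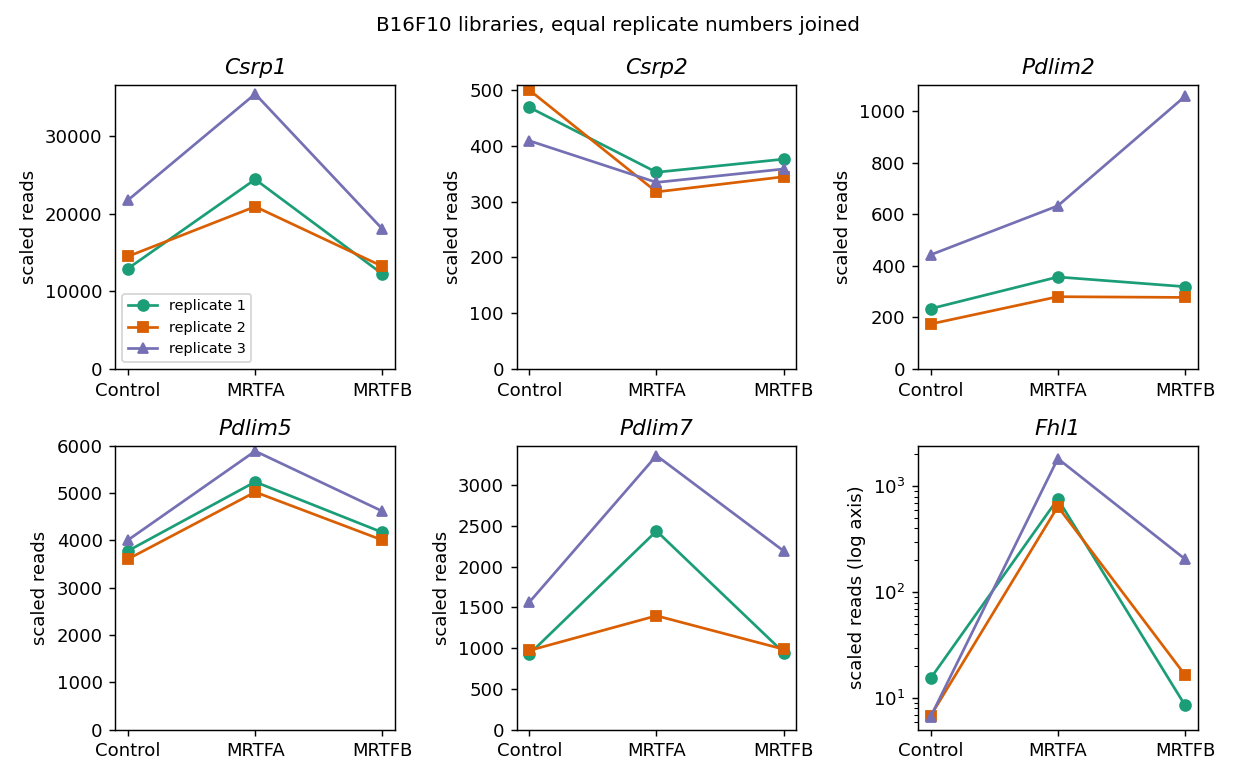
Scaled reads of 6 genes in the 9 B16F10 libraries (Fhl1 on a log axis), with a line joining the control, MRTFA and MRTFB libraries of the same replicate number. The replicate 3 line is the highest throughout for Csrp1, Pdlim2, Pdlim5 and Pdlim7, and each line rises from control to MRTFA except for Csrp2, where each falls.

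With MRTFB limma called 0 of the genes in either line. Fhl1 and Csrp1 in E0771 and Csrp2 in B16F10 did not overlap their controls, but the share of all genes that lay apart was not counted. The MRTFA and MRTFB comparisons share their control libraries. Mkl2 rose less with MRTFB in E0771 than Mkl1 did with MRTFA, and neither was called in B16F10. The part of the transgene level was not tested. In E0771, limma called 0 of 10 genes, where 0.144% of all tested genes were called. An unadjusted p under 0.05 was found for 4 (Fhl1, Fhl3, Csrp1 and Pdlim5), where 2.54% of all tested genes had one. EdgeR called 0, among 13 of 13189 genes, and DESeq2 called 2, Fhl1 and Csrp1, among 51 of 13189. The median log2 difference was 0.27, beside −0.01 over all tested genes. Csrp1 came closest: its MRTFB libraries had 11736, 14425 and 17621 scaled reads, each above every control. Its log2 difference was 1.09 ± 0.18 (adjusted p = 0.0596), and it was called with the block (adjusted p = 0.0141) and without control replicate 3 (1.28, adjusted p = 0.0147). Pdlim5, at 3487, 3295 and 5362 scaled reads, overlapped the controls, and its difference of 0.74 was called with the block alone (adjusted p = 0.0382 against 0.898). With the block 33 of 13189 genes were called in all.

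Fhl1 in the E0771 MRTFB libraries had 16.9, 18.8 and 116 scaled reads, each above the highest control of 5.03. The log2 difference of 3.41 (95% interval 1.99 to 4.83) missed the threshold (adjusted p = 0.128). The ratio of means was 19.2, or 6.78 without MRTFB replicate 3 and 35.2 without control replicate 1. Replicate 3 was also the highest in B16F10, where the libraries labelled MRTFB had 8.58, 16.6 and 205 scaled reads and overlapped the controls; there the ratio of 7.98 became 1.31 without it. The other 7 genes differed in E0771 by 0.02 to 0.34, with 95% intervals that reached no further than −1.19 and 1.24, both for the near-silent Pdlim3.

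In the B16F10 libraries labelled MRTFB, limma called 0 of 9 genes, where 0.126% of genes were called. An unadjusted p under 0.05 was found for 1 (Csrp2), where 8.87% of all tested genes had one. EdgeR and DESeq2 called 0, among 16 and 179 of 13517 genes. The median log2 difference was 0.24, beside 0.00 over all genes. Csrp2 had 376, 345 and 359 scaled reads, all below the lowest control of 409, with a difference of −0.35 ± 0.11 (adjusted p = 0.349). Pdlim2 had 319, 278 and 1058, each above the control of the same number, and its difference of 0.79 was called with the block (adjusted p = 0.0209 against 0.755), as were 603 of 13517 genes. Its ratio of means was 1.95, or 1.05 without MRTFB replicate 3.

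Set against each other, MRTFB libraries were below MRTFA libraries for nearly all of the genes in E0771. In E0771 Mkl1 rose more with MRTFA than Mkl2 did with MRTFB, so the factor and the level of its transgene cannot be told apart. There 9 of 10 genes were lower with MRTFB, Fhl3 being the exception, where 33.6% of tested genes were called in either direction and 19.1% were lower. That count holds Pdlim3, which passed the filter through the MRTFA libraries alone. The split over all genes, 1916 higher and 2514 lower, turned to 2644 higher and 2282 lower with upper-quartile scaling, under which the same count of 9 genes was lower. Csrp1 was 5.38-fold lower (log2 difference −2.45 ± 0.18, adjusted p = 3.02e-06), Fhl1 140.3-fold lower (−7.67 ± 0.64, adjusted p = 8.29e-06; 397-fold without MRTFB replicate 3) and Pdlim2 1.68-fold lower (−0.80 ± 0.21, adjusted p = 0.0144). Pdlim2 lost its call without MRTFB replicate 2 (adjusted p = 0.053) and in the fit over all 18 libraries (adjusted p = 0.177). Fhl3 differed by −0.09 (interval −0.38 to 0.20).

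In B16F10, 2 of 9 genes were lower with MRTFB than with MRTFA, where 1.09% of all genes were called. Pdlim3 had 3 reads against 188 (log2 difference −5.00 ± 0.51), and again passed the filter only where it was high. Fhl1 was 13.998-fold lower by means (−4.88 ± 0.94, adjusted p = 0.0376), or 85.6-fold without MRTFB replicate 3 and 9.12-fold without MRTFA replicate 3. The Fhl1 call was lost in edgeR (adjusted p = 0.128), in DESeq2 (adjusted p = 0.0513), with a minimum of 50 scaled reads (adjusted p = 0.0684) and without any of the 3 MRTFA replicates or MRTFB replicate 1 or 2 (adjusted p = 0.151 to 0.301). Pdlim3 could not be tested without an MRTFA replicate, since too few libraries then passed the minimum. With the block 5 of 9 were lower, Csrp1 (−0.88, adjusted p = 0.000102), Pdlim5 (−0.34, adjusted p = 0.00284) and Pdlim7 (−0.83, adjusted p = 0.0141) being added, among 359 of 13517 genes called.

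The difference between the lines in the MRTFA effect, E0771 minus B16F10, was tested in 1 fit over all 18 libraries. It was larger in E0771 for 5 of 10 genes, where 21.1% of 14859 genes were called in either direction and 12.6% were higher. Over all genes 1867 were higher and 1271 lower, and 1669 and 1786 with upper-quartile scaling, which left the count of 5 genes as it was. For Csrp2, which rose in E0771 and lay below its controls in B16F10 with either transgene label, the difference was 2.41 ± 0.19 (adjusted p = 2.47e-07). The steep genes Csrp1 (2.81 ± 0.32, adjusted p = 1.18e-05) and Pdlim5 (2.72 ± 0.26, adjusted p = 1.93e-06) followed. These 3 calls held with each library of the compared groups left out in turn.

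Fhl1 (4.48 ± 1.27, adjusted p = 0.0192) and Pdlim7 (1.66 ± 0.53, adjusted p = 0.034) depended on single libraries. Fhl1 missed the threshold without B16F10 control replicate 1 (4.12, adjusted p = 0.0504), without B16F10 MRTFA replicate 2 (4.19, adjusted p = 0.0525) and in edgeR (4.54, adjusted p = 0.153). Pdlim7 missed it without B16F10 control replicate 3 or MRTFA replicate 2, or without E0771 control replicate 1 or MRTFA replicate 1 or 2 (1.31 to 1.62, adjusted p = 0.071 to 0.102). For Fhl2 the effects were alike in size, 2.02 and 1.80, and the interval of their difference ran from −1.51 to 1.94, so a difference of several-fold either way is within the error. Pdlim3 (1.67, adjusted p = 0.126) and Pdlim4 (1.30, adjusted p = 0.113) were called with a pseudocount of 10 (adjusted p = 0.0128 and 0.00023). Pdlim4 is at or under 3 reads in every B16F10 group, so its value says little of an effect there.

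**Figure D4:**
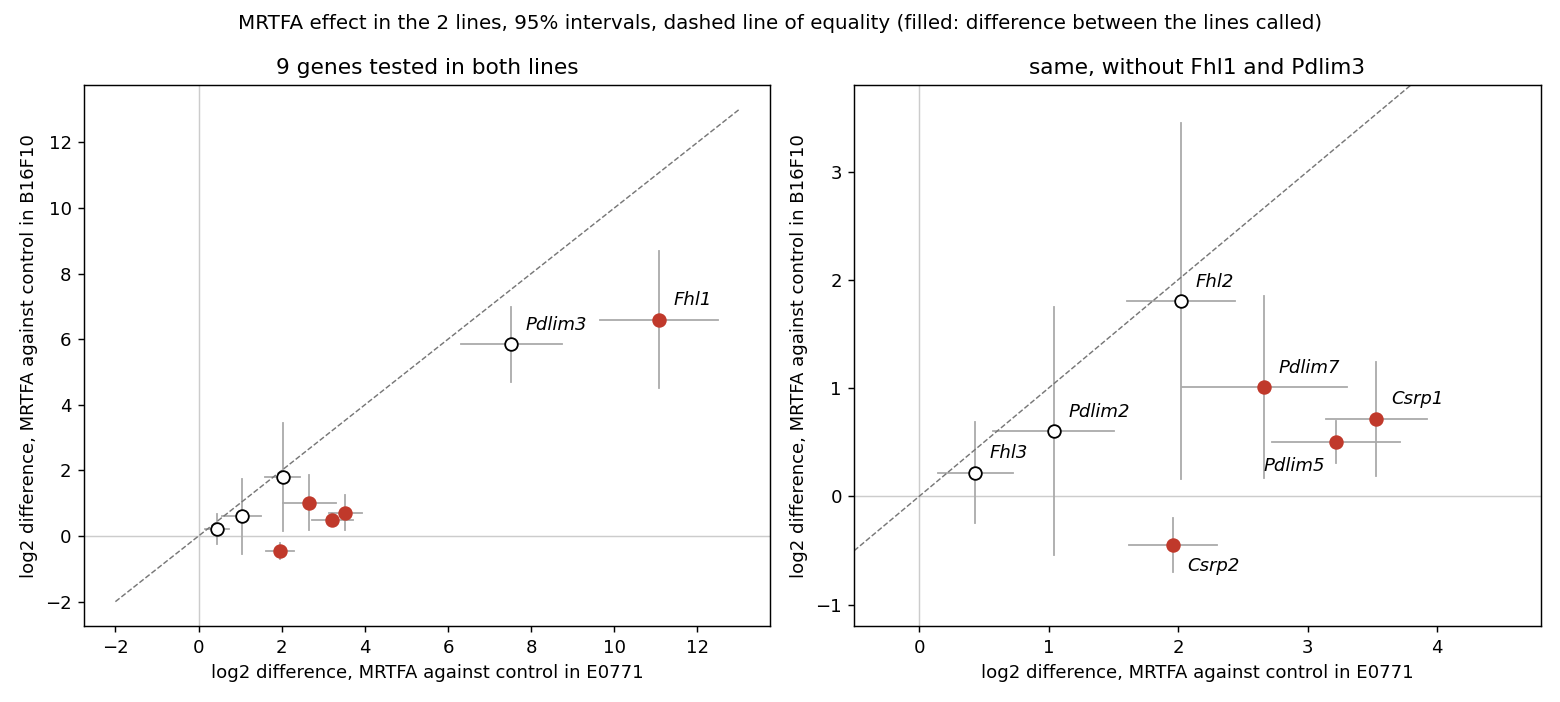
Log2 difference of MRTFA against control in E0771 (x axis) and in B16F10 (y axis) for the 9 genes tested in both lines, with 95% intervals as grey lines, the dashed line marking equal effects and the right panel leaving out Fhl1 and Pdlim3. Filled points are the 5 genes whose difference between the lines was called; all 5 lie below the dashed line, Csrp2 also below 0 on the y axis, and Fhl2 lies close to the line.

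The Mkl1 difference itself was larger in E0771 than in B16F10 by 3.12 ± 0.28 (adjusted p = 9.84e-07), and its part in the gap between the lines was not tested. Mammary epithelial markers (5 of 7 in the table) summed to 5820 to 7901 scaled reads in E0771 controls and 14987 to 17027 with MRTFA, and their part was not tested. In B16F10 they summed to 33.4 to 77.0 in controls, with Epcam and Krt19 at 0, and to 96.2 to 156 in libraries labelled MRTFA. These sums do not stand for each marker. With MRTFA in E0771, 3 markers could be tested and 2 were higher, where 20.3% of all tested genes were. Between controls, 3 of 5 tested markers were higher in E0771 and 1 lower, where 33.4% and 36.8% of all tested genes were. For MRTFB, limma called 0 of 10 genes as different between the lines, where 0.114% of genes were called. An unadjusted p under 0.05 was found for 2 (Csrp1 and Pdlim5), where 5.46% of all tested genes had one. EdgeR called 0, among 16 of 14859 genes, and DESeq2 called Csrp1 (1.26, adjusted p = 0.0444), among 41 of 14859.

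In the controls E0771 was higher than B16F10 for 5 genes and lower for 2, a share near the background, since 70.2% of all tested genes were called. Fhl2 was 227-fold higher in E0771 by means of 1667 ± 407 and 7.35 ± 5.83 scaled reads (log2 difference 8.01 ± 0.58, adjusted p = 1.51e-09), and 346-fold without B16F10 control replicate 3. Pdlim4 was at least 123-fold higher in E0771, with 363 reads against 0. It passed the filter through the E0771 libraries alone, so it had to differ, and its place among the 5 is not support. Fhl3 was 6.66-fold higher (adjusted p = 3.05e-10), Pdlim2 5.58-fold (adjusted p = 5.27e-05) and Pdlim7 2.32-fold (adjusted p = 0.00807). The muscle-type actin bundler Csrp1 was 2.37-fold lower in E0771 (log2 difference −1.24 ± 0.23, adjusted p = 0.000127) and Pdlim5 1.56-fold lower (−0.69 ± 0.19, adjusted p = 0.00341). Csrp2 differed by −0.05, with an interval from −0.34 to 0.23, and Fhl1 and Pdlim3, both near silent, were not called (adjusted p = 0.12 and 0.588), although the 3 Fhl1 values in E0771 were below those in B16F10. Csrp1, below B16F10 in controls, reached 78584 ± 6583 scaled reads with MRTFA in E0771, above every B16F10 library.

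Levels of different genes can be compared only per length, so scaled reads were divided by the kilobases of annotated exon. Csrp1 led in every group, at 8378 ± 2404 per kb in B16F10 controls and 3529.7 ± 855 in E0771 controls (SD, n = 3), and did not overlap the next gene. In B16F10 controls it was followed by Pdlim5 at 428 ± 22.7, then by Pdlim7 at 238 ± 73.2 and Csrp2 at 212 ± 21.3, whose ranges overlapped. Fhl3 (78.0 ± 20.7) and Pdlim2 (63.2 ± 31.4) overlapped as well, and Fhl2, Fhl1, Pdlim3 and Pdlim4 were below 4 on average. In E0771 controls Fhl2 came next after Csrp1 at 879 ± 214, apart from Pdlim7 at 552 ± 156, which overlapped Fhl3 at 519.6 ± 63.5. Pdlim2 (353 ± 67.2) and Pdlim5 (274 ± 85.3) overlapped, as did Pdlim5 and Csrp2 (205 ± 26.4), and Pdlim4 stood alone at 46.5 ± 13.98.

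With MRTFA in E0771, Fhl1 moved from the ninth place to the fifth at 1908 ± 262 per kb. It stood behind Csrp1 (40176 ± 3365.5), Fhl2 (3519 ± 401), Pdlim7 (3437 ± 599) and Pdlim5 (2491 ± 319), and the ranges of each neighbouring pair from Fhl2 to Fhl1 overlapped. In the B16F10 libraries labelled MRTFA, Fhl1 reached the fourth place at 290 ± 175, overlapping Pdlim7 at 494 ± 203. Dividing by the longest transcript instead of all exons changed the order of some neighbours. In both control groups Pdlim2 then stood above Fhl3, in B16F10 controls Csrp2 above Pdlim7, and with MRTFA in E0771 Pdlim7 and Pdlim5 above Fhl2. By that length Fhl2 overlapped Pdlim7 in E0771 controls, and Fhl1 no longer overlapped its neighbour above with MRTFA in E0771.

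**Figure D5:**
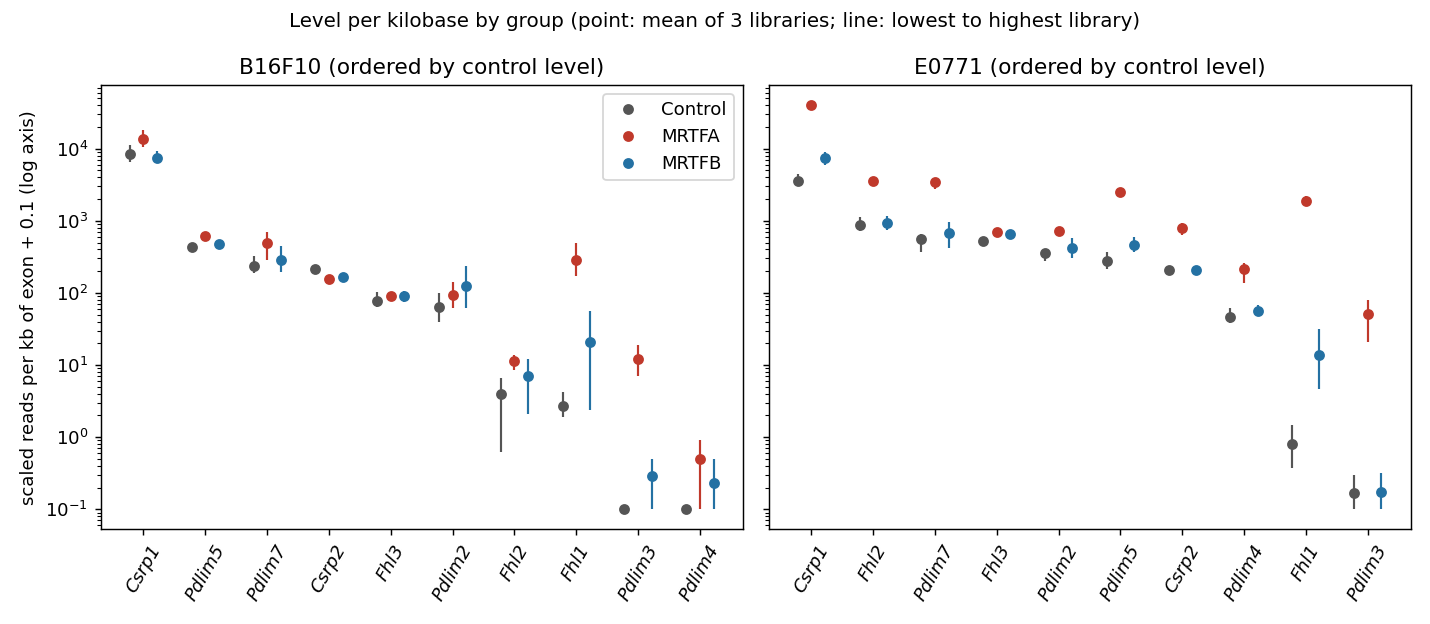
Scaled reads per kilobase of exon plus 0.1 on a log axis for the 10 genes, B16F10 left and E0771 right, each ordered by its control level, with a point at the mean of 3 libraries and a line from the lowest to the highest library. Csrp1 is the highest in all 6 groups, and the MRTFA points stand furthest above the controls for Fhl1 and Pdlim3 in both lines.

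How far the genes moved together was described by Pearson's r of log2(scaled reads + 1), with no test, since libraries share group, line and depth. Over the 9 E0771 libraries, the 45 pairs of genes had r from 0.56 for Fhl3 with Csrp2 to 0.99 for Csrp1 with Pdlim5. Over the 9 B16F10 libraries r ran from −0.79 for Csrp2 with Pdlim5 to 0.96 for Pdlim3 with Pdlim5. Over all 18 libraries the pattern of Pdlim7 was most like that of Vcl, the focal adhesion protein vinculin (r = 0.982), Srf, the partner of the MRTFs itself (0.98), and Cnn2, an actin-binding calponin (0.979). Fhl1 and Csrp1 both had Lmod1, an actin filament nucleator of smooth muscle, first (0.981 and 0.965). Csrp1 was followed by Wdr1 (0.964), a cofactor of actin disassembly, which was also first for Pdlim5 (0.983). Pdlim3 was nearest to Myl1, a muscle myosin light chain (0.99). Other genes stood about as near: Cobl (0.963) and Prss46 (0.96) to Fhl1, Optc (0.962) to Csrp1, Agxt2 and Plac8 (0.988 each) to Pdlim3, and Picalm (0.979) to Pdlim5. The gene with the highest r was Pkp2, which encodes a desmosome protein, for Fhl2 (0.99), Dlx2 for Fhl3 (0.991), Lynx1 for Pdlim4 (0.996), Zfp703 for Pdlim2 (0.986) and Wdr62 for Csrp2 (0.977). An r over 18 libraries also holds the difference between the lines: that of Fhl2 with Fhl3 was 0.974, but 0.573 within E0771 and 0.481 within B16F10.

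Other genes of LIM-domain proteins and of alpha-actinin partners moved too with MRTFA in E0771, where 20.3% of all tested genes were higher and 18.1% lower. Of 14 tested LIM genes of the cytoskeleton and muscle, 7 rose and 2 fell, with a median log2 difference of 0.53. Lima1, an actin crosslinker also called EPLIN (2.91 ± 0.15), Ldb3, a Z-disc PDZ-LIM protein (5.28 ± 0.33), and Lmo7 (1.67 ± 0.14) had the lowest adjusted p, 3.53e-07 to 6.09e-06. Lmcd1 was at 90.9 to 262 scaled reads with MRTFA and at most 5.65 elsewhere in E0771. Like Actn2 in the alpha-actinin list, a gene named after its values were seen, it passed the filter through the MRTFA libraries alone, so its place in the count is not support. Of 11 LIM genes of focal adhesions and junctions, 8 rose and 0 fell by limma (8 of 11 at an unadjusted p under 0.05), with a median of 0.98, led by Tgfb1i1, the paxillin relative Hic-5 (2.88 ± 0.15, adjusted p = 3.57e-07), and Fblim1 (2.29 ± 0.16, adjusted p = 1.87e-06). Of 12 alpha-actinins and Z-disc partners, 10 rose and 1 fell, with a median of 1.98. The actin crosslinkers Palld (3.87 ± 0.22), Synpo2 (3.65 ± 0.24), Nexn (1.99 ± 0.12) and Actn1 (1.98 ± 0.12) had adjusted p from 5.23e-07 to 1.16e-06. Of 7 nuclear LIM genes 4 rose and 1 fell, with a median of 0.55. The median of the 10 genes followed here was 2.42.

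In the B16F10 libraries labelled MRTFA 4 of 44 genes of these lists were called, all higher, where 1.34% of all tested genes were higher. Ldb3 (4.05 ± 0.72, adjusted p = 0.0194) rose among 14 LIM genes of the cytoskeleton, and Nexn (0.72 ± 0.13, adjusted p = 0.018) among 11 alpha-actinin and Z-disc genes. The other 2, Lmcd1 and Synpo2, passed the filter through the MRTFA libraries alone and had to differ. Lmcd1 was at 42.4 to 81.1 scaled reads there and at most 10.02 in the other B16F10 libraries, and Synpo2 at 87.9 to 126 and at most 6.68. Limma called 0 of 12 focal adhesion LIM genes, with 3 at an unadjusted p under 0.05, and 0 of 7 nuclear ones, with 1; over all tested genes 9.41% had such a p. With MRTFB limma called 0 genes of the 4 lists in either line. In E0771 11 of 44 tested genes had an unadjusted p under 0.05, where 2.54% of all tested genes did. In B16F10 8 of 44 did, where the share over all genes was 8.87%.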

How the data were processed

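Messenger RNA levels were measured in 18 libraries, grouped by the line, vector and replicate number in their labels. Per the submitters' processing notes, the tools were cutadapt 1.6, STAR 2.5.0a, HTSeq 0.5.3 and DESeq, with mm10 as the genome. No source used here gives the annotation, the way reads were assigned to genes or the use of strand. Each deposited value is a signal, which the authors made as a gene's reads over the size factor of the library; the smallest step of a library gave whole reads for 100% of values within 0.001 read. Summed over libraries, each of the 18909 genes had 15 reads or more; 18827 identifiers matched GENCODE M21 without their version number. Libraries of a group differed by chi-square per degree of freedom of 11.7 to 59.2, so none was a duplicate.

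Tests used limma 3.58.1 with trend on log2(scaled reads + 1), two-sided, among genes with at least 10 scaled reads in at least 3 fitted libraries, with Benjamini-Hochberg adjustment over all tested genes. Each line's 9 libraries were fitted together, and all 18 for differences between lines. The tests were tried on simulated data first. Alternatives were pseudocounts of 0.5 and 10, no filter, a minimum of 50, TMM and upper-quartile scaling, edgeR 4.0.16 (quasi-likelihood) and DESeq2 1.42.0 on recovered reads, a replicate block, a fit over all 18 libraries and each replicate left out. Equal numbers were read as pairs where each pair's deviations correlated above 0.1 over genes: in B16F10 for MRTFA (0.353 to 0.567), MRTFB (0.382 to 0.486) and their direct comparison (0.403 to 0.634), and in E0771 for MRTFB (0.459 to 0.553) and the direct comparison (0.134 to 0.474). Named were all 10 genes, the transgenes, up to 4 genes per list by adjusted p and, of the 3 genes most like each in pattern, those given. The genes and lists were chosen with earlier results of these data known.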

Additional observations from a re-analysis of the deposited data

Results flagged for a closer look

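The MRTFA effect differed between the lines, by a test of the difference in a limma fit over all 18 libraries, for 5 of the 10 genes, each larger in E0771 than in B16F10. Among all 14859 tested genes, 21.1% were called in either direction and 12.6% were higher. On the log2 scale the difference was 4.48 for Fhl1, 2.81 for Csrp1, 2.41 for Csrp2, 2.72 for Pdlim5 and 1.66 for Pdlim7. In every same-numbered pair of libraries Csrp2 was higher with MRTFA than control in E0771 and lower in B16F10. In B16F10 it was lower with MRTFB as well, and limma without a block called neither fall. Fhl1 and Pdlim7 did not keep their calls with each library left out.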

How the results depend on the processing

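Of 87 gene results, 36 were called, and 28 of these kept direction and side of the threshold in every alternative that could be run; 40 of 1464 alternative values changed sign, none of a called result and none with an adjusted p under 0.05. With replicate number as a block, 2 of the 10 genes were called for MRTFB in E0771. In B16F10 the block called 7 of 9 for MRTFA, 1 for MRTFB and 5 where MRTFB was set against MRTFA. Over all tested genes it called 33, 855, 603 and 359 in these comparisons. For the line difference in the MRTFB effect the block called 1, among 20 of 14859 genes. There control and MRTFB libraries of equal number went together within B16F10 (r 0.298 to 0.43) and within E0771 (0.335 to 0.456). Across the lines r ran from 0.031 to 0.302. MRTFA in E0771 and the controls were read as unpaired (r 0.084 to 0.525 and 0.084 to 0.172). There the block called 10 and 7 of the genes, as without it, among 6405 of 13189 and 10839 of 14859 tested genes. It changed no other call of the 10 genes. DESeq2 called 2 for MRTFB in E0771 and 1 for the line difference in the MRTFB effect, among 51 and 41 of all tested genes. Upper-quartile scaling called 1 for MRTFB in E0771, among 20 of all tested genes. For MRTFB against MRTFA in B16F10 edgeR called 1 and a minimum of 50 left 0, among 132 and 71 of all tested genes. Leaving out each replicate gave 0 to 1 called for MRTFB in E0771, 0 to 3 for B16F10 with MRTFA, and 0 to 2 for its direct MRTFB and MRTFA comparison. The totals over all tested genes moved too, from 7 to 15, from 37 to 324 and from 10 to 213 in these comparisons. In both lines Pdlim3 could not be tested without an MRTFA replicate, as fewer libraries then passed the minimum. The cause of the other changes was not tested.

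Values that changed sign were all uncalled. The Pdlim4 difference between lines in the MRTFA effect was −0.99 in edgeR and −0.29 in DESeq2, that in the MRTFB effect 0.23 with a pseudocount of 10, and the Csrp2 difference between controls 0.019 with upper-quartile scaling. With each replicate left out, the MRTFB difference in E0771 ran from −0.063 to 0.29 for Fhl2, −0.068 to 0.12 for Csrp2, −0.017 to 0.45 for Pdlim2, −0.34 to 0.36 for Pdlim3 and −0.035 to 0.55 for Pdlim7, and in B16F10 from −0.33 to 0.061 for Csrp1 and −0.21 to 0.42 for Pdlim7. MRTFB against MRTFA ran from −0.15 to 0.022 for Fhl3 in E0771, and in B16F10 from −0.081 to 0.16 for Fhl3 and −0.42 to 0.54 for Pdlim2. The line difference in the MRTFA effect ran from −0.32 to 1.06 for Fhl2, and in the MRTFB effect from −1.40 to 0.076 for Fhl2, −0.11 to 0.23 for Fhl3, −0.93 to 0.057 for Pdlim2, −0.21 to 0.29 for Pdlim4 and −0.21 to 0.47 for Pdlim7. Between controls it ran from −0.13 to 0.054 for Csrp2 and 0.00 to 0.50 for Pdlim3. A count of 0 in a group allows up to 3 reads, so Pdlim3 and Pdlim4 in B16F10 are limited by depth.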
